A study of Mus musculus with 18 samples.

Results

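The 78 mitochondrial ribosomal protein genes of the mouse heart were taken as every gene of the deposited table whose symbol starts with Mrpl or Mrps followed by a number, 78 of the 12988 genes listed. Of these, 51 code for proteins of the large subunit of the mitochondrial ribosome and 26 for proteins of the small subunit. The remaining gene, Mrps36, carries the name but codes for a component of the 2-oxoglutarate dehydrogenase complex. The symbols Mrps18a and Mrps30 stand for large-subunit proteins, and both were counted there. All 78 genes were above 0 in all 18 libraries and all 78 passed the filter on low values, at least 1 FPKM in at least 3 libraries, with 12052 genes tested in all.

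Heart RNA was sequenced from mice that received an adeno-associated virus (serotype 9) by subcutaneous injection as neonates and underwent surgery at 8 weeks of age. In myocardial infarction (MI) the left anterior descending artery was ligated for good, and the sham operation had no ligation. The groups were sham with the control vector (4 libraries), MI with the control vector at day 3 (4 libraries) and at day 14 (3 libraries), and MI with the vector carrying mouse Fgf17, a secreted fibroblast growth factor, at day 3 (4 libraries) and at day 14 (3 libraries). All groups thus carried a vector, and no sham group carried Fgf17. The labels give no day for the sham hearts, no promoter that drives Fgf17 and no statement that libraries came from separate animals, so p-values measure the spread between these libraries, part of which may be technical. Libraries carry the numbers of the table's columns.

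Mitochondrial ribosomes translate the few proteins encoded by mitochondrial DNA, all of them subunits of the respiratory chain or the ATP synthase. Their RNAs are made from mitochondrial DNA, but all their proteins are nuclear-encoded, made in the cytosol and imported. Many of these proteins have bacterial counterparts, and others are found only in mitochondria. In people, faults in several of these genes, MRPL3, MRPL44 and MRPS22 among them, cause disease that includes cardiomyopathy.

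Values are FPKM, fragment counts divided by transcript length and by the mapped total of the library, so levels of different genes are compared per length. Read totals are not given in the table, so depth is unknown. Summed FPKM per library ranged from 301085 to 362004, and the 13 mitochondrially encoded genes took 35.6 to 41.7% of it in sham and 18.8 to 35.1% in the MI libraries. MI day 3 control library 4 (18.8%) and MI day 14 FGF17 library 4 (20.8%) had the lowest shares. The summed FPKM of 10 cardiomyocyte markers was 10135 to 11742 in sham, 6896 to 8492 at day 3 and 8038 to 9616 at day 14 with the control vector, and 7953 to 8966 at day 3 and 9797 to 11818 at day 14 with FGF17. The summed FPKM of 9 macrophage markers was 259.0 to 286.9 in sham, 1417 to 1685 and 808.5 to 1243 at the 2 days with the control vector, and 1075 to 1387 and 669.5 to 718.4 with FGF17. None of the markers of either list was at 0 in all libraries of a group. These are whole hearts, so fewer cells of a type and less RNA per cell cannot be told apart. The part of cell composition in the results that follow was not tested.

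In sham hearts the mean level of the 78 genes ranged from 2.60 FPKM for Mrps10 to 98.3 FPKM for Mrpl18, a 37.8-fold range around a median of 18.7 FPKM. The highest levels were those of Mrpl18 (98.3 FPKM), Mrps21 (97.5 FPKM), Mrpl12 (79.6 FPKM), Mrpl34 (74.2 FPKM) and Mrpl42 (60.9 FPKM). Mrpl12 forms the flexible stalk of the large subunit with Mrpl10 at its base, and Mrpl10 stood at 21.1 FPKM. The lowest levels were those of Mrps22 (4.84 FPKM), Mrpl17 (4.64 FPKM), Mrps17 (4.42 FPKM), Mrpl32 (3.99 FPKM) and Mrps10 (2.60 FPKM). In all, 7 genes were above 50 FPKM and 5 under 5 FPKM.

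By role, the median sham level was 18.8 FPKM for the 29 large-subunit genes with a bacterial counterpart and 19.1 FPKM for the 21 mitochondria-specific large-subunit genes. It was 18.1 FPKM for the 16 small-subunit genes with a bacterial counterpart and 12.7 FPKM for the 10 mitochondria-specific small-subunit genes. Mrpl55, a large-subunit gene not assigned to either class here, stood at 60.4 FPKM. Within every library the median log2 level of the large-subunit genes was above that of the small-subunit genes, by 0.44 ± 0.032 in sham (SD, n = 4) and by 0.58 ± 0.12 in the day 3 control-vector group (n = 4).

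**Figure D1:**
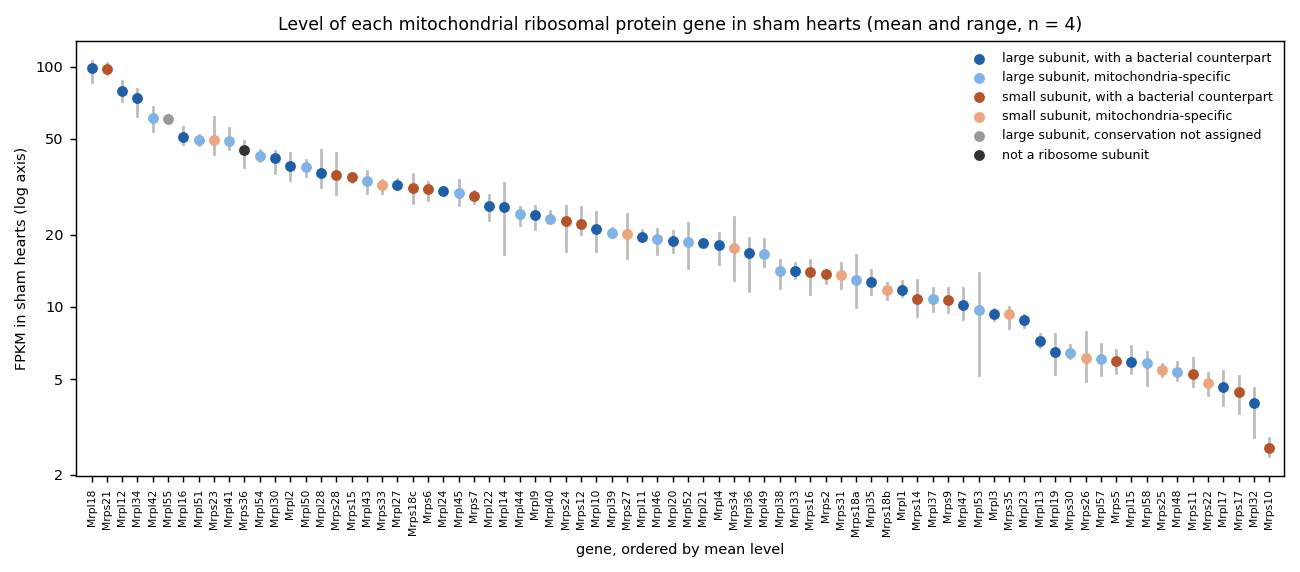
Level of each of the 78 genes in sham hearts, in FPKM on a log axis, ordered by mean; points are means of 4 libraries, grey lines run from the lowest to the highest library, and colours give the subunit and class. Levels run from 98.3 FPKM (Mrpl18) to 2.60 FPKM (Mrps10), and the classes lie intermixed along the order.

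Across all 18 libraries the levels of most of these genes were narrow. In 66 of 78 genes the highest library was under 2-fold above the lowest, and the median of that ratio was 1.64. The ratio was over 3 in 4 genes, chosen here after their values were seen: Mrpl53 (14.5), Mrpl52 (4.15), Mrpl32 (3.38) and Mrpl14 (3.10). Mrpl53 shares 88.0% of its exon bases with the gene Gm42688 on the same strand in the GENCODE vM21 annotation, so its values are uncertain. In all, 33 of the 78 genes share exon bases with another annotated gene, 21 of them with a protein-coding gene that the table also lists. The library's strand setting is not given in the sources used here. Overlaps on opposite strands therefore cannot be told apart either.

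As deposited, Mrps18b, Mrpl55, Mrpl3 and Mrpl45 passed the test for a rise with FGF17 at day 14, and Mrpl52 for a rise at day 3 after MI. The rises with FGF17 were 4 of the 78 genes, against 3.63% of all genes tested. Those of Mrpl55, Mrpl3 and Mrpl45 passed the test in only some of the fits run. The promoters of these 5 genes are shown. Each is the RefSeq sequence on GRCm38.p6, 250 bases before to 50 bases after the RefSeq start, printed 5′ to 3′ on the strand of the gene. Capitals mark exact matches on either strand to GCATGCGC (the core letters bound by the factor NRF1), CCGGAAG (bound by ETS-family factors such as GABP), AAGATGGC (YY1) and TCAAGGTCA (oestrogen-related receptors, ERR). The windows are chr17:35916391-35916690 on the minus strand for Mrps18b and, on the plus strand, chr11:59202236-59202535 for Mrpl55, chr9:105053018-105053317 for Mrpl3, chr11:97315466-97315765 for Mrpl45 and chr14:54426659-54426958 for Mrpl52.
Mrps18b: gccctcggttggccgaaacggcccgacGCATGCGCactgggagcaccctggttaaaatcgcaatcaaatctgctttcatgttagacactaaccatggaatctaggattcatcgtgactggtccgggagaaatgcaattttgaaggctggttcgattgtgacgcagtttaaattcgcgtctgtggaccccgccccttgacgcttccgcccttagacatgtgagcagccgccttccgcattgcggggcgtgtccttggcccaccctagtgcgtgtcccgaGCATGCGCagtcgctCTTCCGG
Mrpl55: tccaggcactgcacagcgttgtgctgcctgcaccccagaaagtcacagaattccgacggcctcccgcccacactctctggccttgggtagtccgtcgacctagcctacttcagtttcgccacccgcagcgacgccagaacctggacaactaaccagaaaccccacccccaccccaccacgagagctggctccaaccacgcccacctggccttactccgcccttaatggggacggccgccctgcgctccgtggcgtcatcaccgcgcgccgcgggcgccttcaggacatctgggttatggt
Mrpl3: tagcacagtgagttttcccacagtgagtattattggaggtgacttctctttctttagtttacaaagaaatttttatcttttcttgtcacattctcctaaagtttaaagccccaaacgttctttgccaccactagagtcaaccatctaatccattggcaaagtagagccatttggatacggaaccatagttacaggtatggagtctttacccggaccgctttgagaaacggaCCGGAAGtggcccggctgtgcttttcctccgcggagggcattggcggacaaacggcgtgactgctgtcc
Mrpl45: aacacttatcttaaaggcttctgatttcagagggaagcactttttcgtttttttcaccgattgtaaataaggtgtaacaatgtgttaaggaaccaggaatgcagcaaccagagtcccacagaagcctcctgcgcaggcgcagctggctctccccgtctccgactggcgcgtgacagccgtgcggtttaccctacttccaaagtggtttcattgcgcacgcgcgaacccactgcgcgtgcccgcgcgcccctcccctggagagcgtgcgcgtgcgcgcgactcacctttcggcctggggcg
Mrpl52: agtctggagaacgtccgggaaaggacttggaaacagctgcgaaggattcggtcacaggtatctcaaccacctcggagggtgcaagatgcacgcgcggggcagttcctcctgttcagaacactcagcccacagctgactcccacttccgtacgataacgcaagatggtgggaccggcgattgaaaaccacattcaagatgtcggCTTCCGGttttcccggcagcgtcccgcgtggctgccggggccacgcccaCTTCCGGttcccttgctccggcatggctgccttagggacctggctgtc

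The Mrps18b window holds the NRF1 letters at both ends and the ETS letters next to the second copy. Mrpl52 holds the ETS letters in 2 places, Mrpl3 holds them once, and the windows of Mrpl55 and Mrpl45 hold none of the 4 motifs. RefSeq promoters matched 69 of the 78 genes, with 75 sequences of 300 bases. Among these 75, the NRF1 letters occurred in 8 (10.7%), the ETS letters in 26 (34.7%), the YY1 letters in 12 (16%) and the ERR letters in 0. The shares among the 12826 promoters of genes in the deposited table were 4.92%, 16.6%, 4.18% and 0.281%. Among all 32851 promoters of the RefSeq table they were 2.71%, 8.86%, 2.75% and 0.423%. None of the 4 motifs lies within another, though the end of the ETS letters can run into the start of the YY1 letters, and a match is a description of the sequence only. Of the 19 genes with a promoter that fell at day 3 after MI, 3 held the ETS letters, against 20 of the 44 that passed the test in neither direction and 3 of the 6 that rose; these counts were not tested.

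Whether MI changes the expression of the mitochondrial ribosome was asked first at day 3, with the control vector in both groups. At day 3, 23 of the 78 genes fell and 7 rose, with a median log2 change of -0.15, while over all 12052 genes tested 15.0% fell and 45.9% rose, with a median of 0.25. The test was limma on log2(FPKM + 0.5), two-sided, with Benjamini-Hochberg adjustment over all genes tested and a threshold of 0.05, and fold changes on this scale understate those of low genes. The log2 change was below the median of all genes in 70 of 78 genes. The fall held 17 of 51 large-subunit genes and 6 of 26 small-subunit genes, and the rise 4 and 3.

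The deposited scaling bears on these counts, since the median gene itself was higher after MI. With median-of-ratios scaling, the median of all genes was -0.01, 30.0% of all genes fell and 30.1% rose, and 56 of the 78 genes fell and 1 rose, with a median of -0.44. With the mitochondrially encoded genes left out and each library rescaled, 44 fell and 1 rose, with a median of -0.35, while over all 12968 genes that then passed the filter 22.5% fell and 35.3% rose, with a median of 0.11. All 23 falls of the deposited scaling were falls under both of these scalings. Both moved the changes down as a whole, so keeping these falls is little support for them. Of the 7 rises, Mrpl52 was the 1 that was a rise under both. With all genes kept and each library rescaled to a total of 1000000, 16 of the 78 genes fell and 7 rose, with a median of -0.098. The share of all genes called under that scaling was not computed.

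**Figure D2:**
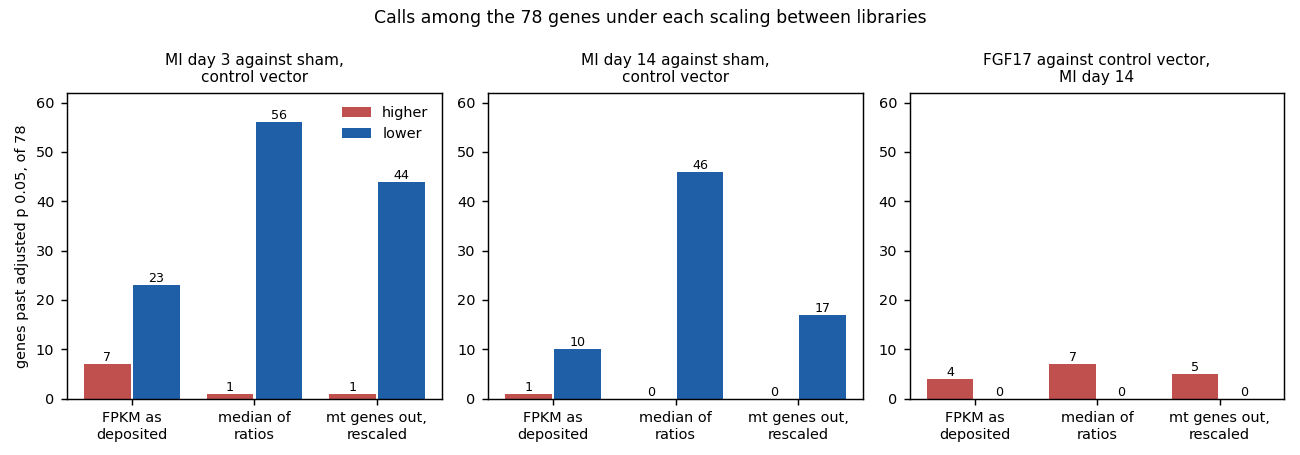
Number of the 78 genes past an adjusted p of 0.05 in limma, higher in red and lower in blue, for 3 comparisons (panels) under 3 scalings between libraries (horizontal axis). At day 3 after MI the genes that fell number 23, 56 and 44, at day 14 after MI 10, 46 and 17, and with FGF17 at day 14 the genes that rose number 4, 7 and 5.

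Mrpl55, one of the more abundant large-subunit genes, read 58.7, 58.3, 61.8 and 63.1 FPKM in the sham libraries and 33.3, 35.4, 36.1 and 47.1 FPKM in the MI day 3 control libraries. Every MI library lay below every sham library. The log2 change was -0.68 ± 0.11 (SE, limma adjusted p = 3.42e-05). Mrps35, a mitochondria-specific protein of the small subunit, read 8.20, 9.44, 9.76 and 9.95 FPKM in sham and 6.37, 5.47, 5.68 and 6.0 FPKM at day 3. The groups did not overlap, and the log2 change was -0.62 ± 0.090 (limma adjusted p = 1.37e-05). Mrpl55 and Mrps35 were picked by their calls on these same libraries, so the separation adds no support. The share of all genes without overlap was not computed, here or for the genes that follow.

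Mrpl14, which in the assembling large subunit binds the assembly factor Malsu1, had the largest fall by log2 change, with 16.7, 28.2, 32.7 and 26.4 FPKM in sham and 14.5, 10.6, 12.1 and 18.0 FPKM at day 3. The lowest sham library lay under the highest MI library, so the groups overlapped. The log2 change was -0.88 ± 0.23 (limma adjusted p = 0.00382). Mrpl42 fell from 60.9 ± 5.65 to 44.2 ± 9.83 FPKM (SD, n = 4 each, log2 change -0.49 ± 0.17, limma adjusted p = 0.0211), with its lowest value, 30.0 FPKM, in MI day 3 control library 4. That call was lost without this library or without sham library 2, where the adjusted p reached 0.0866. Mrps6, whose bacterial counterpart sits on the platform of the small subunit, fell from 27.9 to 33.2 FPKM in sham to 21.0 to 23.4 FPKM at day 3 (log2 change -0.46 ± 0.12, limma adjusted p = 0.00245). Its exons share 10.4% of their bases with Slc5a3 on the same strand.

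Of the genes named above for a tie to human cardiomyopathy, Mrpl3 and Mrpl44 fell and Mrps22 rose as deposited. Other genes with such a tie were not gathered as a set. Mrpl3, a protein near the catalytic centre of the large subunit, fell from 9.39 ± 0.54 to 7.72 ± 1.12 FPKM (SD, n = 4 each, log2 change -0.27 ± 0.096, limma adjusted p = 0.0209). The call was lost without sham library 4 or 5 or without MI day 3 control library 2 or 3, where the adjusted p reached 0.0770, with each library rescaled to a total of 1000000 (0.103) and with the library number as a covariate, a replicate block (0.0579). Mrpl44, a mitochondria-specific protein of the large subunit, fell from 22.0 to 26.0 FPKM in sham to 18.1 to 19.5 FPKM at day 3, with no overlap (log2 change -0.34 ± 0.080, limma adjusted p = 0.00145). Mrps22, a mitochondria-specific protein of the small subunit, rose from 4.30 to 5.31 FPKM in sham to 5.57 to 6.24 FPKM at day 3 (log2 change 0.27 ± 0.10, limma adjusted p = 0.0312), but its change was -0.01 under median-of-ratios scaling.

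Mrpl52, a mitochondria-specific protein of the large subunit, went the other way from most of the genes. It read 16.9, 14.5, 22.3 and 21.0 FPKM in sham and 27.9, 28.4, 30.8 and 60.0 FPKM at day 3. Every MI library lay above every sham library, which adds no support, since Mrpl52 was picked by its call on these libraries. Library 4 stood apart from the other 3 of its group. The log2 change was 0.90 ± 0.22 (limma adjusted p = 0.00181), and 0.64 without that library, still past the threshold. The rise of Mrpl10, from 21.1 ± 3.31 to 26.3 ± 3.81 FPKM (SD, n = 4 each, log2 change 0.31 ± 0.13, limma adjusted p = 0.0429), shrank to 0.01 under median-of-ratios scaling and lost its call. Mrps10, Mrpl13, Mrps18c and Mrpl40 rose by 0.18 to 0.29 on the log2 scale as deposited and had no call under median-of-ratios scaling, where Mrps18c stood at -0.05. Leaving out MI day 3 control library 4 left 1 rise and 29 falls. The number of rises was 2 to 4 without sham library 1, 2 or 5 or MI day 3 control library 3.

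The 3 Mrps18 paralogues, 1 in the large and 2 in the small subunit, differed in their calls as deposited. Mrps18a fell at day 3 from 13.0 to 10.1 mean FPKM (log2 change -0.33 ± 0.12, limma adjusted p = 0.0283). That call was lost with a total of 1000000, in a fit of only the groups compared and with the replicate block (adjusted p = 0.0888, 0.0644 and 0.0666). Mrps18b was at 11.8 in sham and 11.1 at day 3 (log2 change -0.07 ± 0.069, limma adjusted p = 0.373), but it was called lower under median-of-ratios scaling (-0.37, adjusted p = 5.13e-04) and with the mitochondrially encoded genes left out (-0.27, adjusted p = 0.00938). Mrps18c was at 31.1 in sham and 36.9 at day 3 (log2 change 0.25 ± 0.10, limma adjusted p = 0.0489). The differences between the 3 genes were not tested.

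Among the other named genes, none of Mrpl11, Mrpl12, Mrpl58, Mrps5, Mrps12, Mrps28, Mrps34 and Mrps36 passed the test at day 3, with log2 changes of -0.24 (Mrps36) to -0.04 (Mrpl58). That depended on the scaling: under median-of-ratios all of them but Mrpl58 were called lower, for example Mrpl12 at -0.52 and Mrpl11 at -0.51, and Mrpl11, Mrpl12, Mrps5 and Mrps28 were also called lower with the mitochondrially encoded genes left out. Mrpl58 is a peptidyl-tRNA hydrolase built into the large subunit. Mrps12 lies at the decoding centre of the small subunit. Mrps34 shares 63.4% of its exon bases with Mapk8ip3 on the opposite strand and 37.0% with Nme3 on the same strand, so its values are uncertain. Mrps30 fell from 6.44 to 4.97 mean FPKM (log2 change -0.35 ± 0.087, limma adjusted p = 0.00232).

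**Figure D3:**
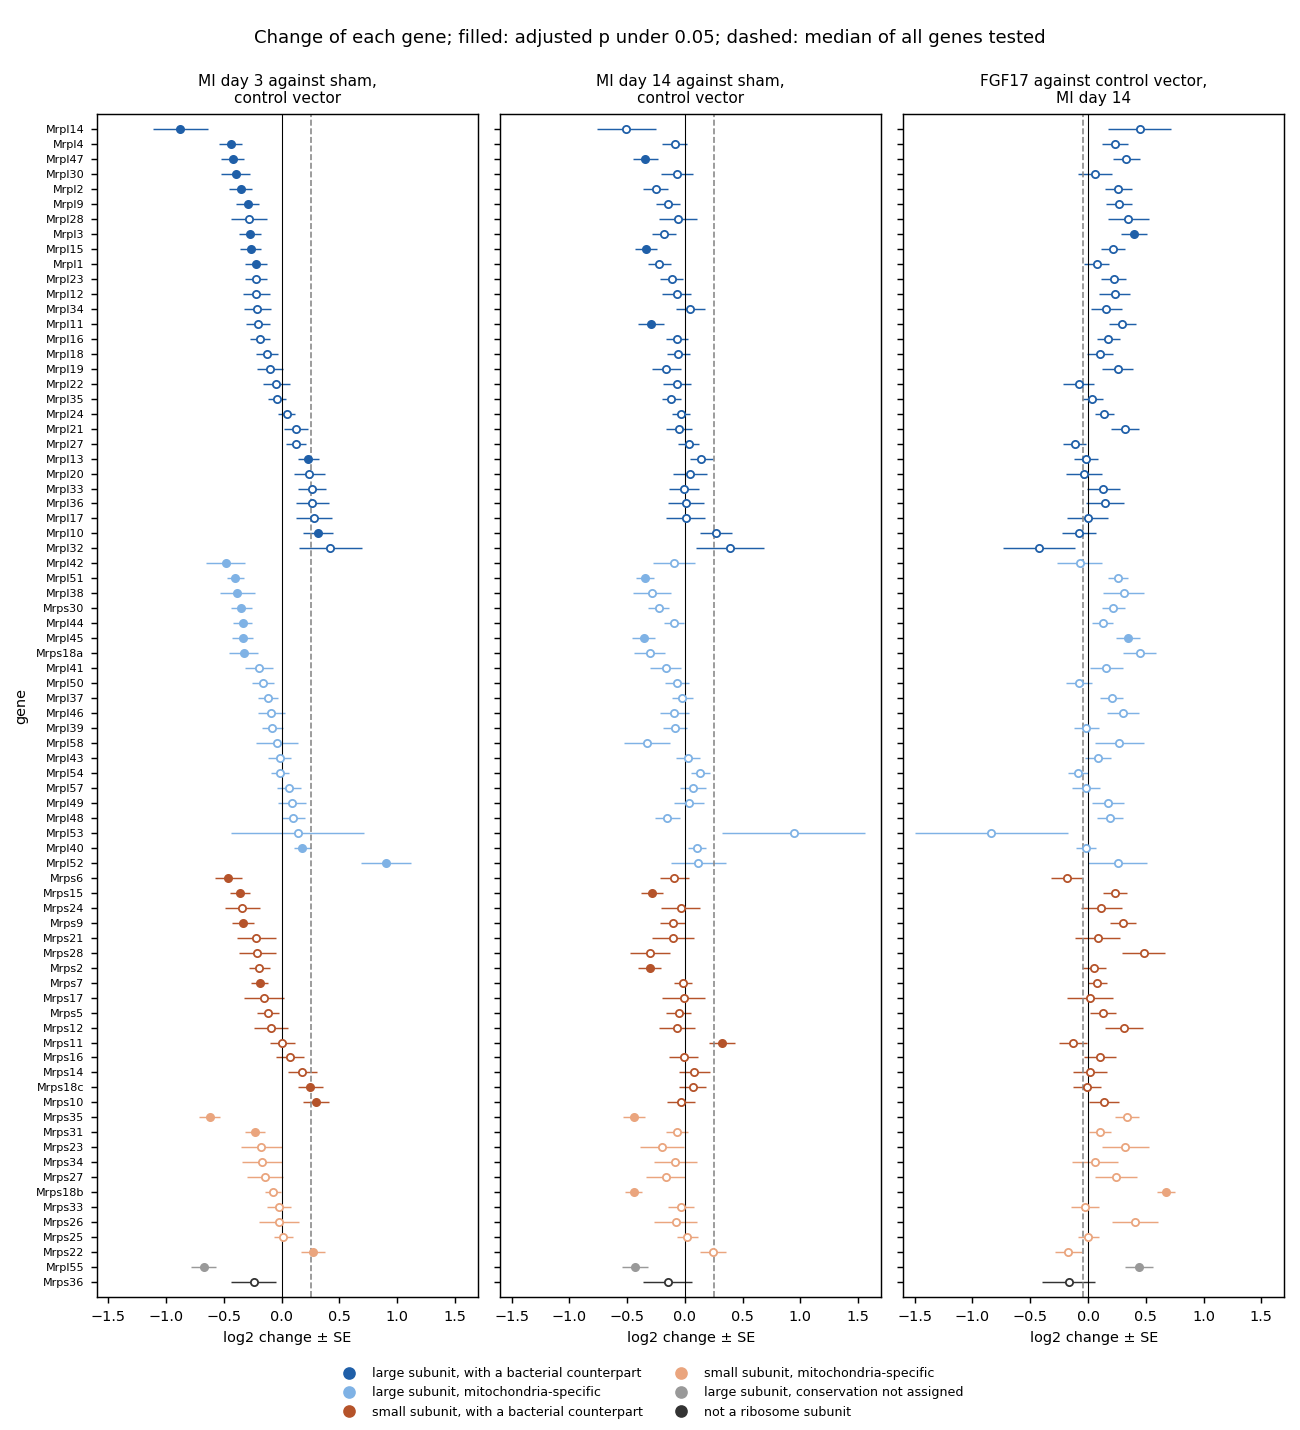
Log2 change ± SE of each of the 78 genes in 3 comparisons (panels), grouped by class and ordered by the change at day 3 after MI; filled points passed an adjusted p of 0.05 in limma, the solid line is 0 and the dashed line the median of all 12052 genes tested. In both comparisons of MI with sham most points lie left of the dashed line (70 and 74 of 78), and with FGF17 at day 14 most lie right of 0 (58 of 78).

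Other parts of mitochondrial gene expression were set beside these genes at day 3. Of 13 translation factors 8 fell and 1 rose (median log2 change -0.36). The elongation factor genes Tufm and Gfm1 were among those that fell, Tufm from 39.1 to 28.0 mean FPKM (log2 change -0.47 ± 0.11, limma adjusted p = 0.00103) and Gfm1 from 43.8 to 32.4 mean FPKM (log2 change -0.43 ± 0.093, limma adjusted p = 7.33e-04). Of 25 assembly factors 6 fell and 0 rose (median -0.12). Mrm3, which methylates the ribosomal RNA of the large subunit, fell from 14.1 to 6.88 mean FPKM (log2 change -1.01 ± 0.11, limma adjusted p = 4.20e-07). Of 22 tRNA synthetases and partners 4 fell and 2 rose (median -0.08), and Gars, which also serves the cytosol, was the rise with the smallest p (25.6 to 40.5 mean FPKM, log2 change 0.65 ± 0.11, limma adjusted p = 7.52e-05).

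Of 19 genes of mitochondrial transcription and RNA handling 10 fell and 1 rose (median -0.37), with Hsd17b10, a subunit of mitochondrial RNase P, falling from 98.3 to 55.8 mean FPKM (log2 change -0.82 ± 0.088, limma adjusted p = 4.41e-07). Among 10 nuclear regulators 4 fell and 3 rose. Myc rose from 1.39 to 6.50 mean FPKM (log2 change 1.90 ± 0.15, limma adjusted p = 7.64e-09), and Esrrg fell from 6.60 to 3.56 mean FPKM (log2 change -0.82 ± 0.14, limma adjusted p = 8.01e-05). Nrf1 was at 0.965 in sham and 1.07 at day 3 (log2 change 0.12 ± 0.13, limma adjusted p = 0.444).

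By median log2 change at day 3, though not by level, the 78 genes stood between the cytosolic ribosomal proteins and the respiratory chain. At day 3, 72 of 82 cytosolic ribosomal protein genes rose and 1 fell (median log2 change 0.57), and 69 of 78 nuclear-encoded genes of the respiratory chain fell and 2 rose (median -0.52). Of the 13 mitochondrially encoded genes 11 fell and 0 rose (median -0.67). Differences taken within a library do not depend on scaling between libraries. The median log2 level of the 78 genes minus that of the respiratory chain genes was -3.45 ± 0.076 in sham (SD, n = 4) and -2.98 ± 0.093 at day 3 (n = 4), and the groups did not overlap. The same difference against the cytosolic ribosomal proteins was -2.59 ± 0.14 in sham and -3.21 ± 0.14 at day 3 (SD, n = 4 each), again with no overlap. Against the cardiomyocyte markers it was -5.75 ± 0.066 in sham and -5.10 ± 0.13 at day 3 (SD, n = 4 each).

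**Figure D4:**
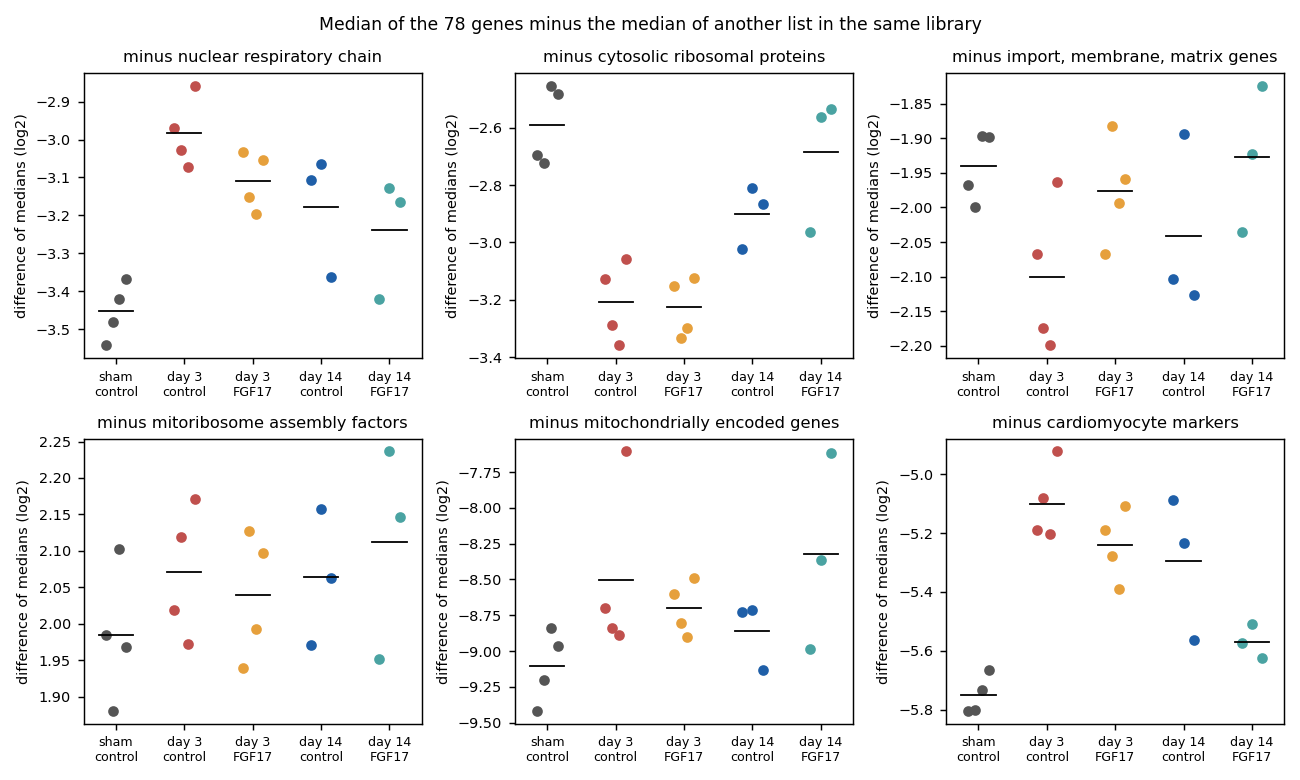
Median log2(FPKM + 0.5) of the 78 genes minus the median of another list in the same library; points are libraries (4 each in sham and both day 3 groups, 3 each at day 14) and bars are group means. Against the respiratory chain the sham libraries lie lowest except for overlap with MI day 14 FGF17 (means -3.45 and -3.24), and against the cytosolic ribosomal proteins both day 3 groups lie lowest (means -3.21 and -3.23).

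In the control-vector hearts at day 14, 10 of the 78 genes fell against the same sham libraries and 1 rose, with a median log2 change of -0.07. Over all genes tested 9.00% fell and 41.0% rose, with a median of 0.25, and 74 of the 78 genes were below that median. Of the falls, 6 were of the large and 4 of the small subunit. With median-of-ratios scaling 46 fell and 0 rose (22.4% and 24.5% of all genes), and with the mitochondrially encoded genes left out 17 fell and 0 rose (11.9% and 34.2% of all genes). All 10 falls were falls under both of these scalings. Both moved the median change of the 78 genes down, to -0.34 and -0.175, so keeping these falls is little support for them. With all genes kept and each library rescaled to a total of 1000000, 7 of the 78 genes fell and 2 rose, with a median of -0.014.

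Mrps18b, 1 of the 2 small-subunit paralogues, had the largest fall among the 10 called genes at day 14. Mrpl14 had a larger log2 change that did not pass the test (-0.51 ± 0.25, limma adjusted p = 0.108). The levels of Mrps18b were 11.4, 12.5, 10.8 and 12.3 FPKM in sham and 8.01, 8.67 and 8.84 FPKM at day 14. All 3 MI libraries lay below all 4 sham libraries, and the log2 change was -0.44 ± 0.075 (limma adjusted p = 1.19e-04). Mrps18b lies at chr17:35910379-35916389 on the minus strand (GRCm38), and the antisense gene Gm16279, not listed in the table, covers 30.5% of its exon bases. Mrps35 stood at 6.39, 6.79 and 7.03 FPKM at day 14, again below all sham libraries (log2 change -0.44 ± 0.098, limma adjusted p = 0.00134). Mrpl55 stood at 47.5, 39.7 and 47.3 FPKM, below all sham libraries (log2 change -0.43 ± 0.12, limma adjusted p = 0.00528). These genes were named as the largest called falls on these same libraries, so their separation from sham adds no support.

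Mrpl45, which holds the ribosome at the inner membrane near the peptide exit tunnel, was at 26.5 to 33.9 FPKM in sham and 21.5 to 25.2 FPKM at day 14 (log2 change -0.36 ± 0.099, limma adjusted p = 0.00661). Mrpl51 was at 47.0 to 51.8 FPKM in sham and 38.2 to 40.1 FPKM at day 14 (log2 change -0.35 ± 0.080, limma adjusted p = 0.00177). In both genes the groups did not overlap, which adds no support, since they too were picked by their calls. Mrpl11, at the base of the stalk, fell from 19.6 to 15.9 mean FPKM (log2 change -0.29 ± 0.11, limma adjusted p = 0.0366), a call lost with a total of 1000000 (adjusted p = 0.142) and with the replicate block (0.0606). The count of falls was 5 without MI day 14 control library 2.

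Mrps11 was the 1 gene that rose, with 5.51, 6.11, 4.76 and 4.71 FPKM in sham and 6.92, 6.78 and 6.33 FPKM at day 14 (log2 change 0.32 ± 0.11, limma adjusted p = 0.0265). Its change was 0.07 under median-of-ratios scaling, with no call, and the call was also lost without sham library 4 or 5 or MI day 14 control library 1 or 2. Mrps11 and Mrpl46 overlap on opposite strands, over 7.97% of the exon bases of Mrps11. Mrpl3, Mrpl44 and Mrps22 did not pass the test at day 14, with log2 changes of -0.18, -0.10 and 0.24. Under median-of-ratios scaling Mrpl3 (-0.44, adjusted p = 0.00114) and Mrpl44 (-0.36, adjusted p = 0.00229) were called lower, as was Mrpl3 with the mitochondrially encoded genes left out (adjusted p = 0.0272). Mrps22 was called higher with a total of 1000000 (adjusted p = 0.0450) and without the 2 libraries of lowest mitochondrially encoded share (adjusted p = 0.0357).

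Of the other lists at day 14 against sham, 45 of 78 respiratory chain genes fell and 2 rose (median -0.29), and 39 of 82 cytosolic ribosomal protein genes rose and 1 fell (median 0.24). Translation factors counted 3 falls and 1 rise of 13, assembly factors 4 falls of 25 and tRNA synthetases 4 falls of 22. Mrm3 stood at 7.92 mean FPKM (log2 change -0.80 ± 0.12, limma adjusted p = 3.15e-05). Dap3, a small-subunit gene outside the Mrp symbols that codes for a GTP-binding protein, fell from 10.3 to 8.25 mean FPKM (log2 change -0.31 ± 0.12, limma adjusted p = 0.0360).

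Day 14 was also compared directly with day 3, both after MI with the control vector. Here 4 of the 78 genes rose and 2 fell, with a median log2 change of 0.02, against 11.2% and 18.3% of all genes tested with a median of -0.02. The rises were Mrps6 (22.3 to 29.1 mean FPKM, log2 change 0.37 ± 0.13, limma adjusted p = 0.0348), Mrpl4 (13.1 to 16.8, 0.36 ± 0.11, 0.0177), Mrps11 (5.30 to 6.68, 0.31 ± 0.11, 0.0460) and Mrpl44 (19.1 to 22.7, 0.24 ± 0.086, 0.0419). The day 14 libraries lay above all day 3 libraries in each of these 4 genes. The genes were picked by their calls on these same libraries, so the separation adds no support. Each of these 4 calls was lost in 1 to 6 of the 7 fits that left out 1 library, and 1 rise was left without MI day 3 control library 2 or MI day 14 control library 1 or 4, and 2 without MI day 3 control library 1.

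The 2 falls were Mrpl52 and Mrps18b. Mrpl52 stood at 17.5 to 21.6 FPKM at day 14, below the 27.9 to 60.0 FPKM of day 3 (log2 change -0.79 ± 0.24, limma adjusted p = 0.0182), with an adjusted p of 0.0839 without MI day 14 control library 4. Mrps18b fell from 10.4 to 11.7 FPKM at day 3 to 8.01 to 8.84 FPKM at day 14 (log2 change -0.37 ± 0.075, limma adjusted p = 0.00112). All 6 calls were also made under median-of-ratios scaling and with the mitochondrially encoded genes left out. Both scalings moved the median change of the mitochondrial ribosomal protein genes up, from 0.024 to 0.054 and 0.116. Keeping the rises is therefore little support for them. With each library rescaled to a total of 1000000, Mrps11 and Mrpl44 lost their calls (limma adjusted p = 0.0541 and 0.0947). That left 2 rises and 2 falls. In a fit of only the groups compared, Mrpl4 and Mrps18b kept their calls, and those of Mrps6, Mrps11, Mrpl44 and Mrpl52 were lost (adjusted p = 0.0519 to 0.0936). The 3 comparisons of MI share libraries, so their values stand side by side here and do not support each other.

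The effect of FGF17 was asked within MI hearts at each day. At day 3, 0 of the 78 genes rose and 0 fell in limma, against 0.0581% and 0.174% of all genes tested, and the median log2 change was 0.01. At an unadjusted p under 0.05 there were 2 of the 78 genes, against 1029 of the 12052 genes tested. The median level of the 78 genes was 17.8 ± 2.19 FPKM with the control vector and 17.7 ± 0.66 FPKM with FGF17 (SD, n = 4 each). Of the 10 nuclear regulators 1 rose and 0 fell. In the other mitochondrial lists and the cytosolic ribosomal proteins 0 genes rose and 0 fell.

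At day 14 with FGF17, 4 of the 78 genes rose and 0 fell, against 3.63% and 5.98% of all genes tested. The log2 change was above 0 in 58 of 78 genes, with a median of 0.14, against a median of -0.04 over all genes. At an unadjusted p under 0.05 there were 18 of the 78 genes, against 3219 of the 12052 genes tested. The number that rose was 7 under median-of-ratios scaling (5.07% of all genes) and 5 with the mitochondrially encoded genes left out (3.57%). The 4 genes were among them in both cases. Both scalings moved the median change of the 78 genes slightly up, to 0.160 and 0.147, so keeping these rises is little support for them.

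Mrps18b had the largest rise, from 8.01, 8.67 and 8.84 FPKM with the control vector to 13.3, 14.2 and 14.1 FPKM with FGF17. All 3 FGF17 libraries lay above all libraries of the other 4 groups, in which the highest value was 12.5 FPKM in sham. Mrps18b was named here as the largest called rise on these same libraries. Its separation from the day 14 control libraries therefore adds no support, and the share of all genes separated in this way was not computed. The log2 change was 0.67 ± 0.080 (limma adjusted p = 5.74e-04), and the call was kept in all 6 fits that left out 1 of these libraries (adjusted p up to 0.00640). At day 3 Mrps18b had a log2 change of 0.03 with FGF17, from 11.1 ± 0.57 to 11.4 ± 0.49 FPKM (SD, n = 4 each). The difference between the FGF17 effects at day 14 and day 3 was tested for every gene. Mrps18b was the 1 gene of the 78 past the threshold, against 0.108% of all genes higher and 0.257% lower, with a difference of 0.64 ± 0.11 in log2 change (limma adjusted p = 0.0265). The adjusted p was 0.0522 to 0.0736 without MI day 3 control library 1, MI day 3 FGF17 library 3 or 4, MI day 14 control library 1 or 2, or MI day 14 FGF17 library 3.

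Mrpl55 rose with FGF17 from 47.5, 39.7 and 47.3 FPKM to 53.4, 60.9 and 69.4 FPKM, and the groups did not overlap (log2 change 0.44 ± 0.12, limma adjusted p = 0.0326). The FGF17 mean of 61.2 FPKM stood beside 60.4 FPKM in sham. Mrpl3 rose from 8.38, 8.00 and 8.22 FPKM to 9.93, 12.3 and 10.7 FPKM (log2 change 0.40 ± 0.11, limma adjusted p = 0.0334). Mrpl45 rose from 23.0, 21.5 and 25.2 FPKM to 26.3, 33.2 and 29.7 FPKM (log2 change 0.34 ± 0.11, limma adjusted p = 0.0483). In these 3 genes the FGF17 libraries lay above all control-vector libraries of day 14. They were picked by their calls on these same libraries, so the separation adds no support. The count of rises was 1 without MI day 14 control library 1 or 2 or FGF17 library 3, and 2 without FGF17 library 4, where the adjusted p of Mrpl55, Mrpl3 and Mrpl45 reached 0.133, 0.148 and 0.194. It was 8 without FGF17 library 1. In a fit of only the groups compared, the calls of Mrpl55, Mrpl3 and Mrpl45 were lost as well (adjusted p = 0.144, 0.143 and 0.195). With the replicate block they were also lost (0.0637, 0.0899 and 0.126). Mrpl45 also lost its call with no filter on low values (limma adjusted p = 0.0501) and with a total of 1000000 (0.0519). The same held without the 2 libraries of lowest mitochondrially encoded share (0.0944).

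The next genes by p, Mrps35, Mrps18a and Mrpl51, named after their values were seen, did not pass the threshold as deposited, and all 3 were called higher under median-of-ratios scaling. Mrps35 had 6.74 ± 0.33 FPKM with the control vector and 8.69 ± 1.24 FPKM with FGF17 (SD, n = 3 each, log2 change 0.34 ± 0.10, limma adjusted p = 0.0508). Mrps18a had a log2 change of 0.45 ± 0.14 (limma adjusted p = 0.0565, and 0.0457 with a filter at 5 FPKM) and Mrpl51 one of 0.26 ± 0.085 (limma adjusted p = 0.0625). The cardiomyopathy genes Mrpl44 and Mrps22 had log2 changes of 0.13 and -0.17. The summed FPKM of cardiomyocyte markers was also higher with FGF17 at day 14, and its part in these rises was not tested. The median difference of the 78 genes against the cardiomyocyte markers within a library was -5.29 ± 0.25 with the control vector and -5.57 ± 0.057 with FGF17 (SD, n = 3 each).

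**Figure D5:**
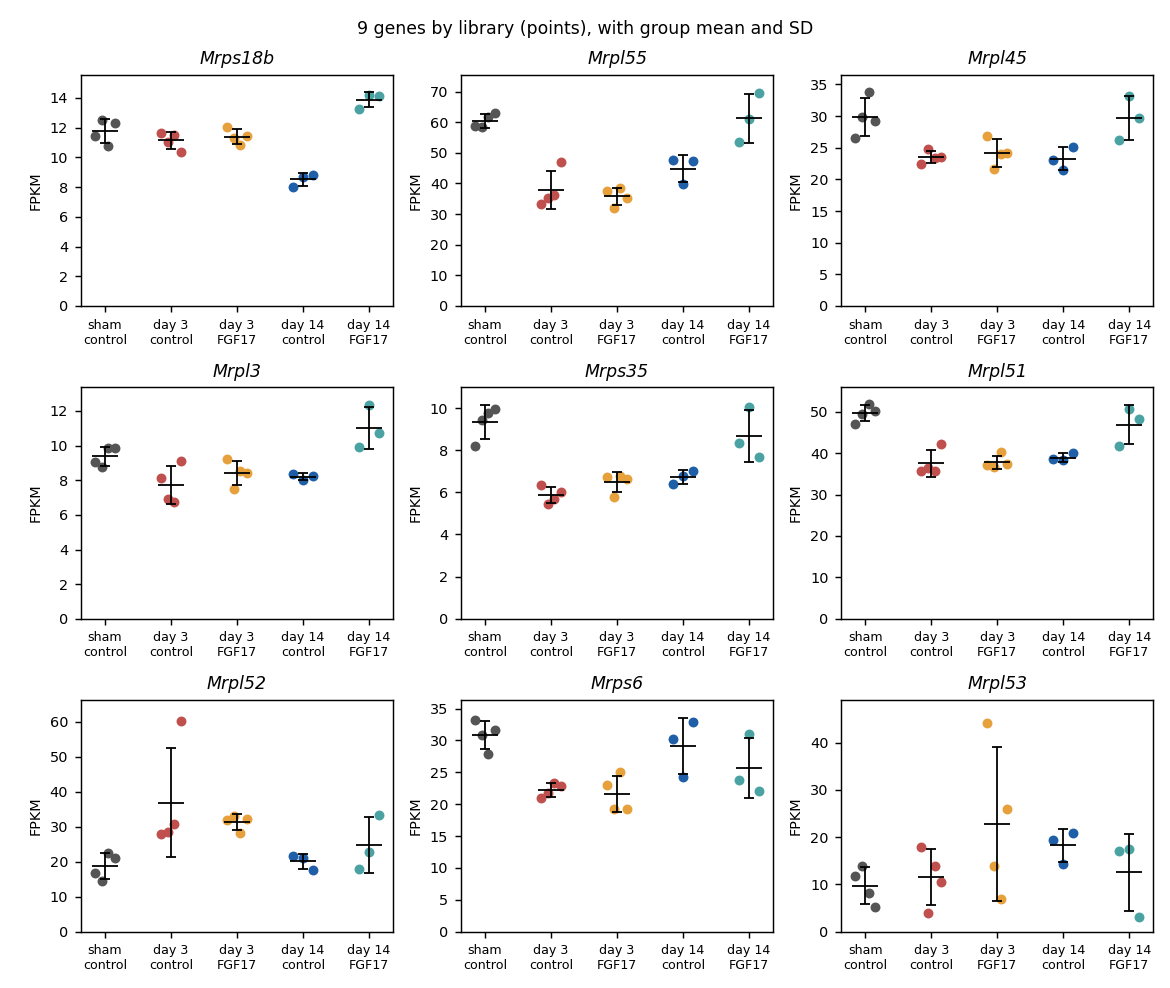
FPKM of 9 of the genes in each library (points), with the mean and SD of each group (bars), for sham and for both vectors at both days (n = 4 in sham and at day 3, n = 3 at day 14); each vertical axis starts at 0. The day 14 control libraries of Mrps18b (8.01 to 8.84 FPKM) lie below, and the FGF17 libraries (13.3 to 14.2 FPKM) above, all other libraries, and MI day 3 control library 4 stands apart in Mrpl52 at 60.0 FPKM.

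Most genes of the other mitochondrial lists did not pass the test with FGF17 at day 14, and the lists were not tested as groups. Of 25 assembly factors 2 rose and 0 fell: Mrm3, from 7.92 to 13.4 mean FPKM (log2 change 0.72 ± 0.12, limma adjusted p = 0.00397), and Rcc1l, from 5.70 to 8.30 mean FPKM (log2 change 0.49 ± 0.14, limma adjusted p = 0.0356). Of 19 genes of transcription and RNA handling 4 rose, with Tbrg4, which stabilises mitochondrial messenger RNAs, from 6.33 to 9.73 mean FPKM (log2 change 0.58 ± 0.11, limma adjusted p = 0.00516), and Lrpprc, which does likewise, from 15.5 to 22.3 mean FPKM (log2 change 0.51 ± 0.13, limma adjusted p = 0.0215). Of 13 translation factors 1 rose, and of 22 tRNA synthetases 0 rose and 0 fell, with 6 at an unadjusted p under 0.05. Over all genes, 3219 of the 12052 tested were under that unadjusted p. Of 13 genes of import, membrane and matrix 4 rose, among them the chaperone gene Hspd1, from 145.5 to 196.1 mean FPKM (log2 change 0.43 ± 0.075, limma adjusted p = 0.00418).

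Of 78 respiratory chain genes 8 rose and 0 fell (median log2 change 0.17), of 82 cytosolic ribosomal protein genes 1 rose and 0 fell (median -0.07), and of 13 mitochondrially encoded genes 0 rose and 0 fell (median -0.29), none of those at an unadjusted p under 0.05. Of 10 regulators 1 rose, Esrra, from 20.1 to 33.8 mean FPKM (log2 change 0.71 ± 0.21, limma adjusted p = 0.0474). The FGF17 comparison at day 14 shares its 3 control-vector libraries with both other comparisons of day 14. Values low in those libraries therefore enter all of them, as in Mrps18b.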

How the data were processed

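RNA was sequenced from 18 mouse heart libraries in 5 groups. The deposited values are FPKM per gene; the authors used FastQC 0.11.7, cutadapt 1.17, HISAT2 2.1.0, StringTie 1.3.3 and GRCm38, per the submitters' processing notes. FPKM scales by total fragments, so a change in a few abundant genes moves all others, and scaling was varied. Columns were assigned to groups by name. The names of the day 3 FGF17 columns give the vector as AAV17, and they were read as that group by exclusion of the others. The names of the sham and MI control columns give no vector. A linear model of 5 group means (limma 3.58.1, R 4.3.3, eBayes with trend) was fitted to log2(FPKM + 0.5) for the 12052 genes that reached 1 FPKM in 3 or more libraries; 6 contrasts were adjusted by Benjamini-Hochberg within each. The code was tested on simulated data. The members and lists were chosen with earlier results of these data known. Named with values were, per contrast, the 5 largest called rises and falls, the 5 highest and 5 lowest levels in sham, a constant set of 16 genes, and up to 3 called genes per other list. One emptied row of the table and symbols listed more than once (13 symbols) were left out of the lists. Read totals are unknown, so no counting intervals are given. Same-numbered libraries correlated at -0.16 to 0.26 in their deviations from group means and were not treated as pairs. Alternatives were other pseudocounts (0.1, 1), filters (none, 5 FPKM) and scalings, robust eBayes, fits of the compared groups alone, a replicate block, and leaving out libraries.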

Additional observations from a re-analysis of the deposited data

Results flagged for a closer look

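Among the 33 named genes, 99 groups of 4 libraries were examined for 1 library far from the other 3 (by Dixon's ratio), and 8 were found; chance gives about 1 in 20. In MI day 3 control library 4, Mrpl52 was at 60.0 FPKM (others 27.9 to 30.8), Mrpl10 at 32.0 FPKM (24.3 to 24.6) and Mrpl51 at 42.3 FPKM (35.7 to 36.4), all above their group. In the same library Mrpl44 was at 18.1 FPKM (19.3 to 19.5) and Mrps36 at 26.2 FPKM (41.4 to 43.8), both below their group. This library also had the lowest share of mitochondrially encoded transcripts, 18.8% of summed FPKM, and the part of that in these values was not tested. In MI day 3 control library 2, Mrps21 was at 122.6 FPKM (others 67.7 to 76.7). In sham library 4, Mrpl11 was at 20.8 FPKM (others 19.0 to 19.3), and in MI day 3 FGF17 library 2, Mrps35 was at 5.78 FPKM (others 6.64 to 6.76).

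The FGF17 effect on Mrps18b differed between the days, by 0.64 in log2 change (limma adjusted p = 0.0265), with the loss of that call in 6 of 14 fits that left out 1 library.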

How the results depend on the processing

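Counts of genes past the threshold were recomputed under each alternative. Apart from median-of-ratios scaling and leaving out mitochondrially encoded genes, the share of all genes called was not computed for the alternatives. Those counts cannot be set against all genes. At day 3 against sham (7 higher, 23 lower), median-of-ratios scaling gave 1 and 56, leaving out mitochondrially encoded genes 1 and 44, and the rises were 4 in a fit of only the groups compared and 3 without the 2 libraries of lowest mitochondrially encoded share; 1 library left out gave 1 to 6 and 18 to 29. The median change moved to -0.44 and -0.35 under the first 2. At day 14 against sham (1, 10), these 2 scalings gave 0 and 46, and 0 and 17; the rises were 2 with a total of 1000000, with only the groups compared and without the 2 libraries; 1 library left out gave 0 to 1 and 5 to 12, and the median moved to -0.34 under median-of-ratios. At day 14 against day 3 (4, 2), the rises were 2 with a total of 1000000 and 10 without mitochondrially encoded genes (15.8% of all genes). They were 1 (with 1 fall) with only the groups compared and 7 without the 2 libraries. With 1 library left out, the rises were 1 to 5 and the falls 2 to 3. With FGF17 at day 3 every setting gave 0 and 0. With FGF17 at day 14 (4, 0), the rises were 7 under median-of-ratios and 1 with only the groups compared; 1 library left out gave 1 to 8 rises and 0 falls. For the difference between days (1, 0), a total of 1000000 gave 0 (Mrps18b adjusted p = 0.0552), and 1 library left out gave 0 to 1. Mrps22 and Mrps18c at day 3 against sham turned to -0.0104 and -0.0533 under median-of-ratios. Of 32 calls among named genes, 14 were kept under all settings run. The cause of these shifts was not tested.

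With library numbers as a replicate block, though the numbers do not pair the libraries, the rises were 2 at day 3 and 0 at day 14 against sham, 1 with FGF17 at day 14 and 0 for the difference between days (Mrps18b adjusted p = 0.0824). Without read totals, precision at low levels is unknown, and no group has more than 4 libraries.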
